A study of Mus musculus with 2 samples.

Results

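The genes described here are 7 rows of the count matrix out of 32285: Il4, Il5, Il13, Il17a, Csf2, Gata3 and Il2ra. Between them they cover type 2 cytokines, the type 17 cytokine interleukin-17A, the growth factor GM-CSF, the transcription factor of type 2 lymphocytes and a subunit of the interleukin-2 receptor. They were chosen because earlier results on the same barcodes had shown them to differ between lymphocyte classes, so their levels are given as a description and no test was made of them. The data come from 1 droplet single-cell RNA library of skin from C57BL/6 mice aged 8 weeks, digested for an hour with Liberase and DNAseII. To deplete neutrophils at steady state, some animals had received the Ly6G-directed antibody 1A8 on each of 2 days in a row, and the others were controls. Cells of both kinds were marked with hashtag antibodies and pooled before sequencing, and the matrix analysed here carries no condition for any barcode. Depleted and control skin were therefore not compared, and the share of either in any class cannot be told apart from the class itself.

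Of 8367 barcodes, 8127 passed filters of at least 200 genes and at most 20% mitochondrial unique molecular identifiers (UMIs, each standing for 1 captured RNA molecule). The kept barcodes held a median of 9708 UMIs. Clustering without the 7 genes gave 5 classes named from marker genes. The innate lymphoid-like class had 65 barcodes, the gamma-delta T-like class 63, the alpha-beta T-like class 75, the NK-type-like class 98 and the mast-like class 23. Median depth was 4420, 4598, 3739, 4911 and 1879 UMIs in that order. A further 85 barcodes of the same clusters were led by macrophage or fibroblast genes at a median of 11972 UMIs, with 27 called as doublets against 1 in the 5 classes. They are called mixed and stand apart from the classes.

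Innate lymphoid cells carry no rearranged antigen receptor and answer to cytokines released by damaged epithelium. Their type 2 subset depends on GATA3 and secretes interleukin-5, which sustains eosinophils, and interleukin-13, which acts on epithelium, fibroblasts and dendritic cells. Skin also holds gamma-delta T cells, some of which are programmed to make interleukin-17A, and dermal mast cells, which can make interleukin-4.

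The class labels came from marker lists, so the counts of those markers describe the classes and are no separate check of the names. In the innate lymphoid-like class 13 of 15 innate lymphoid markers were detected, with Il1rl1 (the interleukin-33 receptor) in 55 of 65 barcodes, but the markers Il17rb and Ptgdr2 stood at 0 UMIs. The antigen receptor complex was not absent: 17 of the 65 barcodes had 2 or more Cd3 UMIs, and 15 of these also had 2 or more UMIs of alpha-beta receptor chains. All 21 Trac UMIs and all 9 Cd4 UMIs of the class lay among those 17 barcodes. The other 48 barcodes had 0 Trac UMIs, but 28 of them had 2 or more UMIs of the beta chain constant genes Trbc1 and Trbc2. Over the whole class the 15 alpha-beta T markers summed to 1468 CPM and the 15 innate lymphoid markers to 8136 CPM. The label thus goes against the Cd3 values in those 17 barcodes. The mast-like class had its naming marker Cpa3 in 23 of 23 barcodes, and the basophil gene Mcpt8 had 0 UMIs in every class. In the alpha-beta T-like class 11 of 75 barcodes had 0 Cd3 UMIs. In the gamma-delta T-like class 60 of 63 barcodes had 2 or more gamma-delta chain UMIs. There, 51 of the 63 had 2 or more UMIs both of Cd3 and of alpha-beta chains.

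The genes Il4, Il13, Il5 and Csf2 lie within 646686 bases of mouse chromosome 11 in the GENCODE annotation of GRCm38. Il4 occupies chr11:53602982-53618669 and Il13 chr11:53631324-53634702, both on the minus strand and 12654 bases apart. Il5 lies at chr11:53720794-53725106 on the plus strand, 86091 bases from Il13, with Rad50 as the only protein-coding gene between them. Csf2 lies 522164 bases further on, at chr11:54247271-54249667 on the minus strand. Il17a is at chr1:20730905-20734496, Gata3 at chr2:9857078-9890034 and Il2ra at chr2:11642807-11693193. The promoters of Il5, Il13 and Il4 are shown because these neighbours were read mainly in different classes, Il5 and Il13 in innate lymphoid-like and Il4 in mast-like barcodes. Each is the 250 bases before the RefSeq start in GRCm38.p6, written 5′ to 3′ on the strand of the gene. The windows are chr11:53720544-53720793 for Il5, chr11:53634703-53634952 for Il13 and chr11:53618666-53618915 for Il4, and capitals mark a GATA motif, which is AGATAA, the form AGATAG, the form TGATAA or the form TGATAG on either strand.
Il5: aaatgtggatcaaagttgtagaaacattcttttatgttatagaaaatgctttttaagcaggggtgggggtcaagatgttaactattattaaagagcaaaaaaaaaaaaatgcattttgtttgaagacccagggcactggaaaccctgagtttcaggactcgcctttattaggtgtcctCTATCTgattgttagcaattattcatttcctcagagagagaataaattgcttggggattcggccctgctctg
Il13: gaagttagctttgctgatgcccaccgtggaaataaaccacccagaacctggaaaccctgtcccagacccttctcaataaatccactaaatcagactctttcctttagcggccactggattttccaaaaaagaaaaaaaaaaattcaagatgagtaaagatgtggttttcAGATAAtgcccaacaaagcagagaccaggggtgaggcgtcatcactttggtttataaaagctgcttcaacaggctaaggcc
Il4: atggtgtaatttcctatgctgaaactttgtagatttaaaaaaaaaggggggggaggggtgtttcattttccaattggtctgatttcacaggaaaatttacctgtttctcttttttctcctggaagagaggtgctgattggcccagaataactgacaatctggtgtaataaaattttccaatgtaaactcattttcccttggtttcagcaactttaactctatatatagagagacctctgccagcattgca
The Il5 window held 1 motif, AGATAG on the opposite strand at bases -72 to -67 from the start. The Il13 window held 1 motif, AGATAA at bases -81 to -76. These letters did not occur in the Il4 window. Among the members not shown, the Csf2 window held 1 motif. The Gata3 and Il2ra windows, of genes also highest in innate lymphoid-like barcodes, held 0, as did the Il17a window. The RefSeq starts used lay 232 bases from the GENCODE start for Csf2 and 11434 bases for Gata3. Of 32851 windows of the same length, 26.5% held at least 1 motif, so a match describes the sequence and does not by itself show binding, which was not tested.

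Il5, Il13 and Csf2 were read mainly in innate lymphoid-like barcodes. Levels are given as UMIs per 1000000 UMIs of the class (CPM) with an exact Poisson 95% interval, which covers counting error only and not differences between barcodes or animals. Of the 7 genes, 5 stood at least 2-fold higher in the innate lymphoid-like class than in the other 4 classes together, where 5.86% of all 7153 genes tested did. The genes were picked on this contrast, so nothing is read from that count.

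Il5 had 299 UMIs in the 65 innate lymphoid-like barcodes, a level of 980 CPM (872 to 1097). It was detected in 39 of them, with a median of 5 and a highest value of 60 UMIs among these. The alpha-beta T-like class had 10 Il5 UMIs in 3 barcodes, 30.7 CPM (14.7 to 56.4), of which 8 came from 1 barcode. The gamma-delta T-like, NK-type-like and mast-like classes had 0 Il5 UMIs, which at 3 counts allows up to 10.1, 5.91 and 46.5 CPM. The Il5 rate in innate lymphoid-like barcodes was 117 times that in the other 4 classes (62.7 to 246). The alpha-beta T-like level overlapped the mast-like limit, and the 3 classes at 0 could not be ordered.

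Il13 had 163 UMIs and 534 CPM (455 to 623) in innate lymphoid-like barcodes, in 19 of 65, with a median of 3 and a highest value of 37 where detected. The 3 barcodes with most Il13 held 54.0% of these UMIs. The next level was 76.7 CPM (49.7 to 113) in alpha-beta T-like barcodes, where 17 of 25 UMIs lay in 1 of 4 positive barcodes. That barcode also carried the 8 Il5 UMIs. Mast-like barcodes followed at 46.5 CPM (9.58 to 136), from 3 UMIs, and gamma-delta T-like barcodes at 13.5 CPM (3.68 to 34.6), from 4 UMIs. The mast-like interval overlapped both neighbours, whereas those of alpha-beta T-like and gamma-delta T-like barcodes did not overlap. Without the barcode with 17 UMIs the alpha-beta T-like level was 24.9 CPM, inside the gamma-delta T-like interval, so that separation rested on 1 barcode. NK-type-like barcodes had 0 Il13 UMIs. The ratio of innate lymphoid-like barcodes to the other 4 classes was 19.9 (13.6 to 30.1).

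Csf2, which encodes GM-CSF, a growth and survival factor of myeloid cells, had 483 UMIs and 1583 CPM (1445 to 1730) in innate lymphoid-like barcodes. It was detected in 38 of 65, with 15 barcodes at 10 or more UMIs and a highest value of 54. Alpha-beta T-like barcodes had 24.6 CPM (10.6 to 48.4) from 8 UMIs and gamma-delta T-like barcodes 10.1 CPM (2.09 to 29.6) from 3 UMIs, with overlapping intervals. NK-type-like and mast-like barcodes had 0 Csf2 UMIs. The ratio to the other 4 classes was 172 (95.1 to 346).

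**Figure D1:**
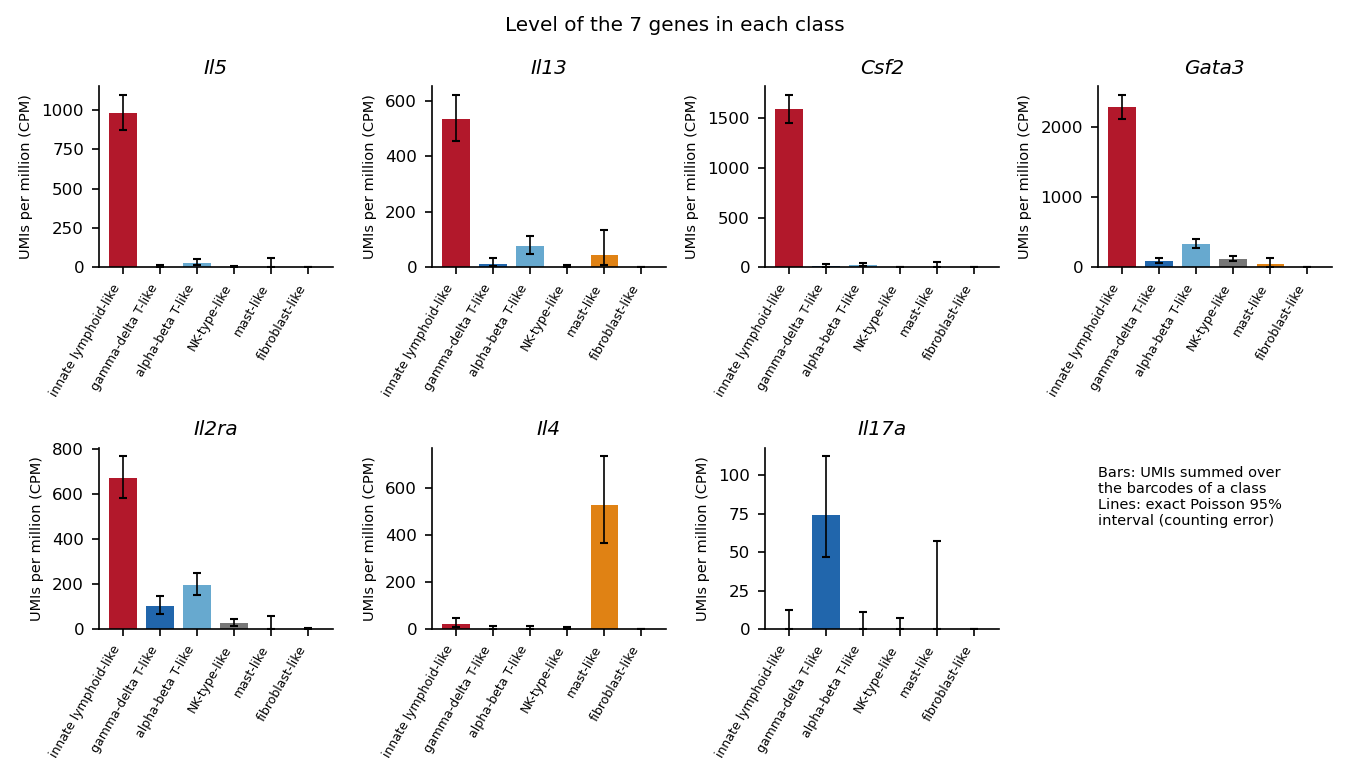
Level of each of the 7 genes (vertical axis, CPM, linear from 0) in the innate lymphoid-like, gamma-delta T-like, alpha-beta T-like, NK-type-like, mast-like and fibroblast-like classes; bars are summed UMIs over the class and lines are exact Poisson 95% intervals. Il5, Il13, Csf2, Gata3 and Il2ra were highest in the innate lymphoid-like class, Il4 in the mast-like class at 526 CPM and Il17a in the gamma-delta T-like class at 74.4 CPM.

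How the classes were drawn mattered most for these ratios. When barcodes were assigned one by one from marker UMIs, 37 of the 65 innate lymphoid-like barcodes kept that class, 14 went to alpha-beta T cells, 12 to no class, 1 to gamma-delta T cells and 1 to mast cells. The innate lymphoid class drawn in this way also took in 16 mixed, 4 macrophage-like, 3 alpha-beta T-like and 1 unnamed barcodes, and the alpha-beta T class took in 23 mixed ones. The ratios of innate lymphoid-like barcodes to the other 4 classes then came to 6.20 for Il5, 10.7 for Il13, 6.37 for Csf2, 5.26 for Gata3 and 4.43 for Il2ra.

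The 17 innate lymphoid-like barcodes with 2 or more Cd3 UMIs also carried Il5, Il13 and Csf2, in a split that was chosen after the values were seen. Il5 stood at 1505 CPM (1270 to 1772) with Cd3 and 740 CPM (628 to 866) without it, a ratio of 2.04 (1.61 to 2.57). A single barcode supplied 60 of the 144 Il5 UMIs with Cd3, and without it the level was 971 CPM (775 to 1202) and the ratio 1.31 (0.99 to 1.72). Il13 stood at 418 CPM (299 to 569) with Cd3 and 587 CPM (488 to 700) without it, and Csf2 at 1913 CPM (1646 to 2211) with Cd3 and 1432 CPM (1274 to 1603) without it. Gata3 stood at 1913 CPM with Cd3 and 2453 CPM without it, a ratio of 0.780 (0.655 to 0.925). The barcodes with Cd3 were deeper, with a median of 6049 UMIs against 4136.5. With the cut at 2 UMIs, 3 barcodes lay at the cut and 4 at 1 UMI just below it. The role of cells held together in 1 droplet was not tested, and 0 of the 65 barcodes were called as doublets.

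Gata3, the transcription factor that type 2 lymphocytes require, was the most evenly spread of the 7 in innate lymphoid-like barcodes. It was detected in 64 of 65, with a median of 9 and a highest value of 43 UMIs over the class, 2284 CPM (2117 to 2460). Alpha-beta T-like barcodes had 335 CPM (275 to 404), NK-type-like 122 CPM (93.7 to 157), gamma-delta T-like 91.3 CPM (60.2 to 133) and mast-like 46.5 CPM (9.58 to 136). The first step down in that order exceeded the intervals, as did that from alpha-beta T-like to NK-type-like, whereas the last 3 classes overlapped each other. The ratio of innate lymphoid-like barcodes to the other 4 classes was 13.6 (11.6 to 15.9). All 39 barcodes with Il5 and all 38 with Csf2 in the innate lymphoid-like class also held Gata3.

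Il2ra encodes the alpha chain of the interleukin-2 receptor (CD25), which raises its affinity and is carried by type 2 innate lymphoid cells and regulatory T cells. It had 205 UMIs and 672 CPM (583 to 770) in innate lymphoid-like barcodes, in 54 of 65, with a highest value of 13. Alpha-beta T-like barcodes had 196 CPM (151 to 251), gamma-delta T-like 101 CPM (68.4 to 145), NK-type-like 25.6 CPM (13.6 to 43.8) and mast-like 0 UMIs, which allows up to 46.5 CPM. Neighbours in this order did not overlap down to the NK-type-like level, which could not be told from the mast-like limit. Without the alpha-beta T-like barcode with most Il2ra UMIs that class stood at 125 CPM, inside the gamma-delta T-like interval. Within the alpha-beta T-like class, a sub-cluster of 18 barcodes had Ctla4, Ikzf2 and Foxp3, genes of regulatory T cells, among its top genes. Foxp3 was detected in 8 of these 18 and in 3 of the other 57 barcodes. Il2ra stood at 649 CPM (473 to 868) in the 18 and 74.1 CPM (44.6 to 116) in the 57. In those 18 barcodes 1 barcode with 24 UMIs held 53.3% of the Il2ra count, and without it the level was 329 CPM (204 to 503), 4.45 times that of the 57 (2.27 to 8.74). The ratio of innate lymphoid-like barcodes to all 18 was 1.04 (0.746 to 1.46), and 2.04 (1.30 to 3.37) without that barcode, so whether the levels differed rested on it. Leaving out a top barcode within a sub-cluster or a Cd3 split was chosen after the values were seen. Il5, Il13 and Csf2 had 0 UMIs in the 18 barcodes.

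The other receptor chains for interleukin-2 had different orders. Il2rb, the beta chain shared with the interleukin-15 receptor, was highest in NK-type-like barcodes at 903 CPM (822 to 989). Gamma-delta T-like barcodes had 690 CPM, alpha-beta T-like 328 CPM and innate lymphoid-like 279 CPM (222 to 344) of Il2rb. Il2rg, the common gamma chain, stood at 478 CPM (404 to 563) in innate lymphoid-like barcodes and between 108 and 382 CPM in the other 4 classes. Il2 itself had 25 UMIs in 7 innate lymphoid-like barcodes, 81.9 CPM, and 18 UMIs in 14 alpha-beta T-like barcodes, 55.2 CPM.

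Il4, the cytokine that drives type 2 T cell differentiation and class switching to IgE, was read mainly in mast-like barcodes. Its 34 UMIs there, 526 CPM (365 to 736), lay in 13 of 23 barcodes, with a median of 2 and a highest value of 6 where detected. Innate lymphoid-like barcodes had 7 Il4 UMIs, 22.9 CPM (9.22 to 47.3), in 3 barcodes with 4, 2 and 1 UMIs. The gamma-delta T-like, alpha-beta T-like and NK-type-like classes had 0 Il4 UMIs, which allows up to 10.1, 9.21 and 5.91 CPM. The ratio of the mast-like class to the other 4 was 108 (47.1 to 288), and 49.7 with classes drawn from marker UMIs per barcode. Of the 7 genes, Il4 alone was at least 2-fold higher there, where 15.2% of genes tested were. The mast-like class was the smallest and shallowest, and 7 of its 23 barcodes had fewer than 1000 UMIs.

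Gata3 was low in the mast-like class, where the Il4 level was highest, with 3 Gata3 UMIs in 3 of 23 barcodes. That level, 46.5 CPM, overlapped those of the NK-type-like and gamma-delta T-like classes. The related factor Gata2, which mast cells require, stood at 1301 CPM in the mast-like class, of which it was a naming marker. It had 1 UMI in the innate lymphoid-like class. All 3 innate lymphoid-like barcodes with Il4 also held Il13, and 2 of 13 mast-like barcodes with Il4 did. Gata3 was detected in 2 of those 3 innate lymphoid-like barcodes.

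Il17a, the signature cytokine of type 17 lymphocytes, had 31 UMIs in the whole filtered library, in 3 barcodes. The gamma-delta T-like class held 22 of them, 74.4 CPM (46.6 to 113), as 17 and 5 UMIs in 2 of 63 barcodes. Both lay in a sub-cluster of 12 barcodes led by Il23r, Cd163l1 and Il1r1, where the level was 488 CPM (306 to 739). The third barcode, with 9 UMIs, was a mixed one that also had 7 UMIs of Il17f, 10 of Cd3 and 25 of the macrophage gene C1qa. The other 4 classes had 0 Il17a UMIs, so the rate was at least 29.8-fold higher in gamma-delta T-like barcodes against a floor of 3 counts over those classes. Without the barcode with most Il17a UMIs the level was 17.3 CPM. At a lower clustering resolution the sub-cluster of 12 was drawn into the alpha-beta T-like class and gamma-delta T-like barcodes had 0 Il17a UMIs. Il17a was the only one of the 7 at least 2-fold higher in gamma-delta T-like barcodes than in the other 4 classes, where 19.2% of genes tested were.

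The same 12 barcodes stood above the other 51 gamma-delta T-like barcodes in Il2ra, with 444 CPM (271 to 685) against 39.9 CPM (19.1 to 73.4), a ratio of 11.1 (4.97 to 26.6). Gata3 stood at 266 CPM (138 to 465) in the 12 and 59.8 CPM (33.5 to 98.7) in the 51, but 1 barcode held 6 of its 12 UMIs. Without it Gata3 stood at 148 CPM (54.2 to 321) in the other 11, which overlapped the 51, and the Il2ra level without its own top barcode was 305 CPM (158 to 533). Il2ra was present in both Il17a barcodes of the sub-cluster, with 4 and 8 UMIs. The other 51 barcodes, with Trdc and Tcrg-C1 among their top genes, had 0 Il17a UMIs.

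**Figure D2:**
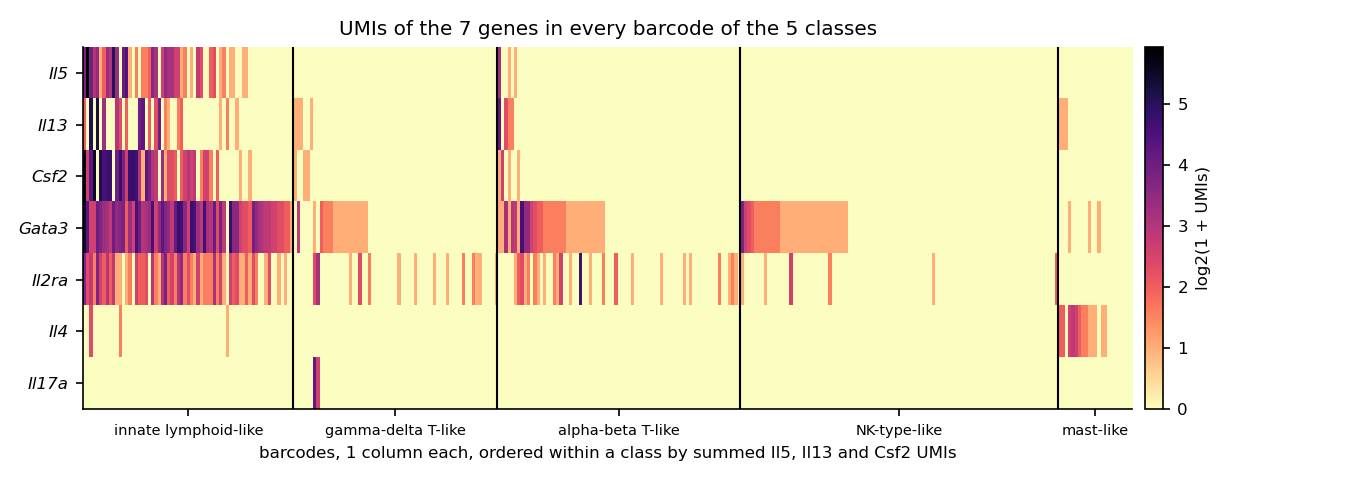
UMIs of the 7 genes (rows) in each of the 324 barcodes of the 5 classes (columns, innate lymphoid-like at the left and mast-like at the right), coloured by log2(1 + UMIs). Gata3 fills nearly every innate lymphoid-like column, while Il5, Il13 and Csf2 fill overlapping parts of that class; Il4 marks 13 mast-like columns and Il17a 2 gamma-delta T-like columns.

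Shares of barcodes with a UMI ordered the genes otherwise than levels did, with Il2ra above Il5 and Csf2 by share and below both by CPM in the innate lymphoid-like class. In innate lymphoid-like barcodes Il5 was detected in 60% (47.1 to 72.0, Clopper-Pearson 95% interval), Il13 in 29.2% (18.6 to 41.8), Csf2 in 58.5% (45.6 to 70.6), Gata3 in 98.5% (91.7 to 99.96) and Il2ra in 83.1% (71.7 to 91.2). Fibroblast-like barcodes, which should lack Il5 and Il13, gave 0.0348% for Il5 and 0.104% for Il13 at a greater median depth of 12021.5 UMIs. Their shares were 3.90% for Gata3, 1.98% for Il2ra and 1.04% for Csf2. Csf2 reached 92 UMIs in 1 fibroblast-like barcode, so its share is not given as a background. Il4 was detected in 56.5% of mast-like (34.5 to 76.8) and 0.174% of fibroblast-like barcodes. After each barcode was thinned to 1000 UMIs, the innate lymphoid-like shares were 36.9% for Il5, 16.9% for Il13, 47.7% for Csf2, 86.2% for Gata3 and 36.9% for Il2ra. The thinned Il4 share was 37.5% in mast-like barcodes, of which 16 of 23 were deep enough.

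Most innate lymphoid-like barcodes with any of Il5, Il13 and Csf2 carried more than 1 of them. Of the 65, 52 had Il5, Il13 or Csf2, 11 had all 3, 22 had exactly 2 and 19 had 1. The pair of Il5 and Csf2 without Il13 was the most frequent combination, in 17 barcodes. Il5 and Csf2 were also the more often detected genes, in 39 and 38 of the 65 against 19 for Il13. The combinations that these single-gene counts alone would give were not computed, so the combinations are a description and not a sign of joint expression. The 13 barcodes with none of the 3 had a median of 4007 UMIs, against 4407 for the 11 with all 3. In the alpha-beta T-like class 7 of 75 barcodes had any of the 3 and 2 had all of them, in the gamma-delta T-like class 6 of 63 and 0, and in the NK-type-like class 0 of 98.

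Csf2 was detected in 28 of 39 innate lymphoid-like barcodes with Il5, 71.8% (55.1 to 85.0), and in 10 of 26 without it, 38.5% (20.2 to 59.4). The intervals overlapped, and median depths were 4435 UMIs with Il5 and 4181.5 UMIs without it. With detection set at 2 UMIs the shares were 73.3% (22 of 30, 54.1 to 87.7) with Il5 and 34.3% (12 of 35, 19.1 to 52.2) without it, and these intervals did not overlap. Thinned to 1000 UMIs the shares were 62.5% (15 of 24, 40.6 to 81.2) with Il5 and 39.0% (16 of 41, 24.2 to 55.5) without it, with overlapping intervals. Il5 was detected in 14 of 19 barcodes with Il13, 73.7% (48.8 to 90.9), and in 25 of 46 without it, 54.3% (39.0 to 69.1). With detection set at 2 UMIs the shares were 68.8% (11 of 16) with Il13 and 38.8% (19 of 49) without it. Thinned to 1000 UMIs they were 36.4% (4 of 11, 10.9 to 69.2) with Il13 and 37.0% (20 of 54, 24.3 to 51.3) without it. Il5 was detected in 37 of 54 barcodes with Il2ra, 68.5% (54.4 to 80.5), and in 2 of 11 without it, 18.2% (2.28 to 51.8), but median depth was also higher with Il2ra, at 4559.5 UMIs against 3680 UMIs. After thinning, the shares with Il5 were 50% (29.1 to 70.9) with Il2ra and 29.3% (16.1 to 45.5) without it.

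**Figure D3:**
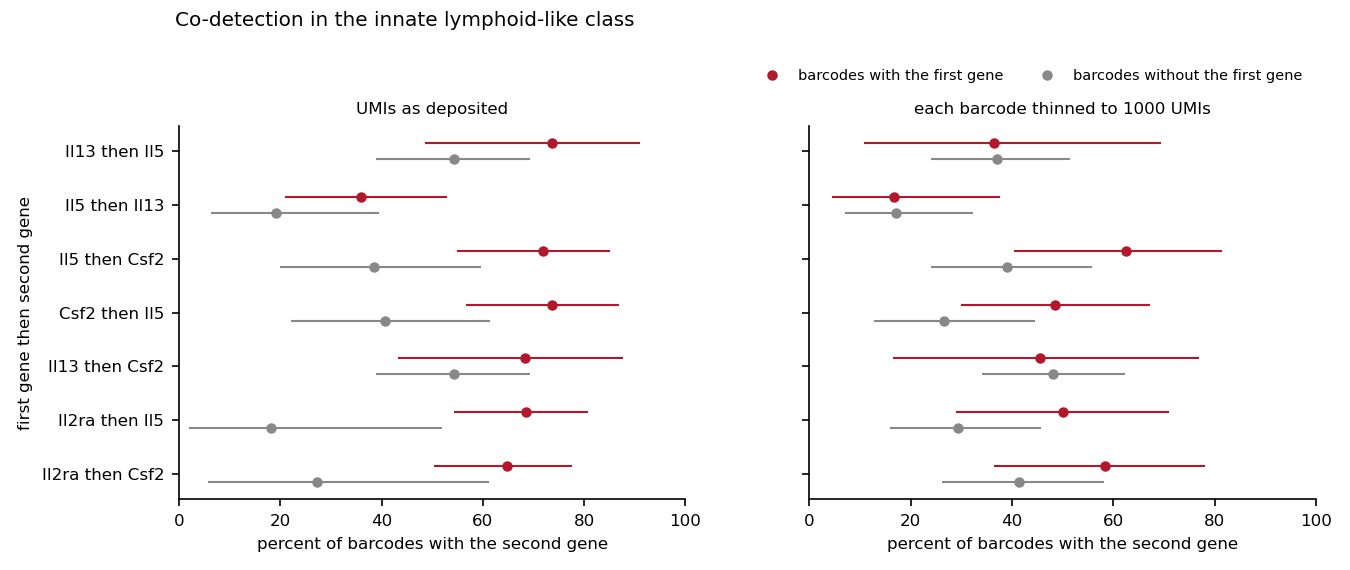
Percent of innate lymphoid-like barcodes with the second gene of each pair (horizontal axis) among barcodes with the first gene (red) and without it (grey), with Clopper-Pearson 95% intervals, for UMIs as deposited (left) and thinned to 1000 UMIs a barcode (right). After thinning, Csf2 was detected in 62.5% with Il5 against 39.0% without it and Il5 in 36.4% with Il13 against 37.0% without it; intervals overlap in both pairs, and with detection set at 2 UMIs (not drawn) the Il13 pair came to 68.8% against 38.8%.

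Amounts could differ sharply within such barcodes. The barcode with most Il5, 60 UMIs, had 0 Il13 and 5 Csf2 UMIs, along with 13 Cd3 and 3 Cd4 UMIs. The barcode with most Il13, 37 UMIs, had 10 Il5 and 0 Csf2 UMIs and 1 Cd3 UMI. The barcode with most Csf2, 54 UMIs, had 13 Il5 and 3 Il13 UMIs and a Cd3 count of 0.

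Genes whose pattern was most like each member were ranked by Pearson's r of log-normalised values over the 324 barcodes of the 5 classes, among 8707 genes with a UMI in at least 10 of them. These barcodes share 1 library and the class differences above, so r describes the classes as much as the genes. For Il5 the 3 nearest genes were Csf2 (r = 0.64), Hilpda, a lipid droplet protein (0.63), and Gata3 (0.58). For Csf2 they were Il5 (0.64), Hilpda (0.57) and Gata3 (0.54), and for Il13 they were Gm41414 (0.57, seen in 11 barcodes), Il5 (0.45) and Pxdc1 (0.44). Gata3 was nearest to Hilpda (0.62), the protease gene Furin (0.62) and Il2ra (0.62), and Il2ra to Gata3 (0.62), Rora (0.62) and Camk4 (0.60). Il4 was nearest to the mast cell receptor Mrgprb1 (0.69), the tryptase Tpsb2 (0.68) and Gata2 (0.68), all 3 naming markers of the mast-like class. Il17a had too few positive barcodes to be ranked.

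Other genes of the type 2 programme were taken from a list of 25, of which 16 had enough UMIs to be tested. In the innate lymphoid-like class 9 of the 16 stood at least 2-fold higher than in the other 4 classes and 2 at least 2-fold lower, where 5.86% of all genes tested were higher and 29.9% lower. The median log2 ratio was 1.85 over the list and -0.52 over all genes. Of the 9, 6 had also served to name the class, among them Areg, a repair factor (1773 CPM against 121 CPM), Rora, a transcription factor of these cells (2500 CPM against 423 CPM), and Arg1 (406 CPM against 0.838 CPM). The other 3 were Lif, Tnfsf11 and Bmp7, named after their values were seen. Lif, an interleukin-6 family cytokine, had 51 UMIs in 16 innate lymphoid-like barcodes and 0 in the other 4 classes, at least 66.5-fold higher. Tnfsf11, which encodes RANK ligand, stood at 269 CPM against 32.7 CPM, a ratio of 8.22 (5.55 to 12.4). Ets1 was the third highest of the list at 1229 CPM and did not pass 2-fold, with a ratio of 1.67 (1.48 to 1.89). Il9, another type 2 cytokine, and Il3, the cytokine gene next to Csf2, had 0 UMIs in every class.

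Type 1 genes stood low in the innate lymphoid-like class, where 8 of 10 tested were at least 2-fold lower than in the other 4 classes, with a median log2 ratio of -5.15, where 29.9% of all genes tested were lower at a median of -0.52. Ifng, which encodes interferon-gamma, had 0 UMIs there and 814 CPM in NK-type-like barcodes. In the NK-type-like class 8 of the 10 were at least 2-fold higher, where 6.91% of genes tested were, beside 0 UMIs of all 5 cytokine genes described here. The list shares Eomes, Gzmb, Prf1 and Xcl1 with the naming markers of the NK-type-like class, so that count is not independent of the naming. This class is also 1 of the 4 that the innate lymphoid-like class was compared with.

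Of 11 type 17 genes tested, 6 were at least 2-fold higher in gamma-delta T-like barcodes, where 19.2% of all genes tested were, with a median log2 ratio of 1.70 over the list and 0.18 over all genes. Cd163l1, Blk and Sox13, among others, are in this list and also naming markers of that class. The count is therefore not independent of the naming. Il23r, the interleukin-23 receptor, had 58 UMIs there, all in 11 of the 12 barcodes of the sub-cluster with Il17a, and the ratio to the other 4 classes was 118 (31.2 to 997). Il1r1, an interleukin-1 receptor, had a ratio of 44.1 (19.2 to 124). At a lower clustering resolution 1 type 17 gene was at least 2-fold higher in the class. In innate lymphoid-like barcodes Il23r and Il1r1 had 0 UMIs.

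Of 12 genes tested from the list for interleukin-2 and regulatory T cells, 7 were at least 2-fold higher in alpha-beta T-like barcodes, where 5.56% of genes tested were, with a median log2 ratio of 1.61 over the list and -0.03 over all genes. The list shares Foxp3 and Ctla4 with the naming markers of that class. In innate lymphoid-like barcodes 4 of the 12 were higher and 4 lower, where 5.86% of all genes tested were higher and 29.9% lower. The higher ones included Cish, a feedback inhibitor induced through STAT5, at 262 CPM against 40.2 CPM, a ratio of 6.52 (4.50 to 9.53). Foxp3 had 0 UMIs there, against 26 UMIs in alpha-beta T-like barcodes.

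Among receptors for the cytokines described here, Csf2rb, the beta chain shared by the receptors for GM-CSF and interleukin-5, had 1 UMI in the 65 innate lymphoid-like barcodes. It stood at 418 CPM (276 to 608) in mast-like, 163 CPM in neutrophil-like, 138 CPM in dendritic-like, 107 CPM in macrophage-like and 101 CPM in monocyte-like barcodes. Il4ra, a chain of the receptors for interleukin-4 and interleukin-13, stood at 151 CPM in innate lymphoid-like, 129 CPM in alpha-beta T-like and 137 CPM in fibroblast-like barcodes.

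Between Il13 and Il5 on chromosome 11, Rad50, a DNA repair gene whose introns hold the locus control region of the type 2 cytokines, had 68 UMIs in 28 of 65 innate lymphoid-like barcodes. Its level was 223 CPM there against 36.9 CPM in the other 4 classes, a ratio of 6.04 (4.08 to 9.04). Irf1, on the other side of Il5, had a ratio of 0.79 (0.52 to 1.16). Of 9 genes listed as neighbours of the locus, 5 were tested, of which 1 was higher in the innate lymphoid-like class and 1 lower, where 5.86% of all genes tested were higher and 29.9% lower. Whether reads were counted by strand is not given in the sources used here.

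**Figure D4:**
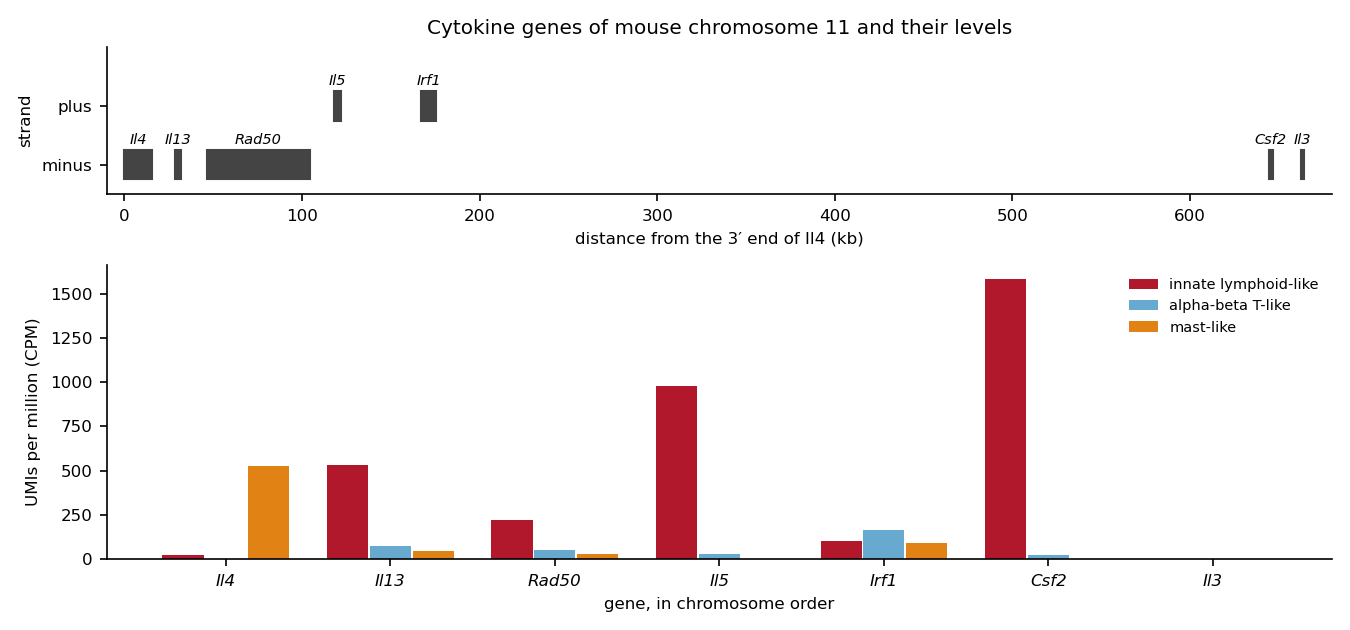
Top, positions of Il4, Il13, Rad50, Il5, Irf1, Csf2 and Il3 in kilobases from the 3′ end of Il4, by strand; bottom, their levels in CPM in innate lymphoid-like, alpha-beta T-like and mast-like barcodes. Il13, Rad50, Il5 and Csf2 are highest in the innate lymphoid-like class and Il4 in the mast-like class at 526 CPM.

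Of the 7 genes, only Gata3 had its main source outside lymphocytes and mast cells, and Csf2 had a lesser part in fibroblast-like barcodes. Gata3 had 6397 of its 8188 UMIs, 78.0%, in keratinocyte-like barcodes, where mouse Gata3 is known to act in hair follicle and barrier formation. Its level there was 406 CPM (396 to 416), in 83.6% of 1425 barcodes, against 4.38 CPM in fibroblast-like barcodes. It was 408 CPM in the cluster led by Krt14 and Krt5 and 546 CPM (526 to 566) in that led by Krtdap, Krt10 and Krt1. The innate lymphoid-like level was 5.62 times the keratinocyte-like level (5.19 to 6.08), and the alpha-beta T-like level 0.824 times (0.675 to 0.995).

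Csf2 had 273 of its 914 UMIs in 30 of 2874 fibroblast-like barcodes, 7.77 CPM (6.87 to 8.74). The highest of these held 92 UMIs, 33.7% of the class. All 30 carried Dcn, a collagen-binding fibroblast gene and naming marker, but so did 2847 of all 2874 fibroblast-like barcodes. A cluster led by Mgp and Thbs4 had 143 of the UMIs in 3 barcodes, and a cluster led by Ptx3 and Has1 had 103 in 19 barcodes. Il5 had 1 UMI and Il13 had 3 in fibroblast-like barcodes. The innate lymphoid-like Csf2 rate was 204 times the fibroblast-like rate (175 to 237).

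Il4 had 15 UMIs in 14 macrophage-like barcodes, of which 14 UMIs lay in 13 of the 401 barcodes of the cluster led by C1qa, Pf4 and Folr2, with Lyve1 also among its top genes. Of these 13 barcodes, 12 had 1 UMI. The mast cell gene Cpa3 was in 0 of the 13 and in only 2 of all 401 barcodes of the cluster. The same cluster had 9 Il5 UMIs in 4 barcodes and 21 Csf2 UMIs in 6, of which 3 and 3 carried 3 or more innate lymphoid markers. The share with such markers over the whole cluster was not computed. Median depth was 21012.5 UMIs with Il5 and 6695 UMIs without it, and 19471.5 UMIs with Csf2 and 6631 UMIs without it, and the part of cells sharing a droplet was not tested. The Il4 rate in this cluster was 4.39 CPM (2.40 to 7.37), against 0.080 CPM in the other macrophage-like barcodes and 0.142 CPM in fibroblast-like barcodes. Il2ra had 23 UMIs in 11 of 287 dendritic-like barcodes, 11.1 CPM (7.05 to 16.7), against 1.79 CPM in fibroblast-like barcodes. The ratio was 6.20 (3.67 to 10.1), and the share with a UMI was 3.83% of dendritic-like and 1.98% of the deeper fibroblast-like barcodes.

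Mixed barcodes carried part of every gene. They held 83 UMIs of Il5, 60 of Il13, 94 of Csf2, 386 of Gata3, 133 of Il2ra, 14 of Il4 and 9 of Il17a. All 18 mixed barcodes with Il5, all 12 with Il13 and all 21 with Csf2 had 3 or more innate lymphoid markers. So did 32 of 34 with Il2ra and 42 of 48 with Gata3, and the share over all mixed barcodes was not computed. Cd3 was detected in 8 of the 18 with Il5, 4 of the 12 with Il13 and 11 of the 21 with Csf2. Assigned from marker UMIs, 16 mixed barcodes went to innate lymphoid, 23 to alpha-beta T, 17 to gamma-delta T and 16 to NK-type. Mixed barcodes were left out of the class levels. A single barcode of an unnamed cluster, called as a doublet, held 19 Il5, 20 Il13 and 23 Csf2 UMIs.

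**Figure D5:**
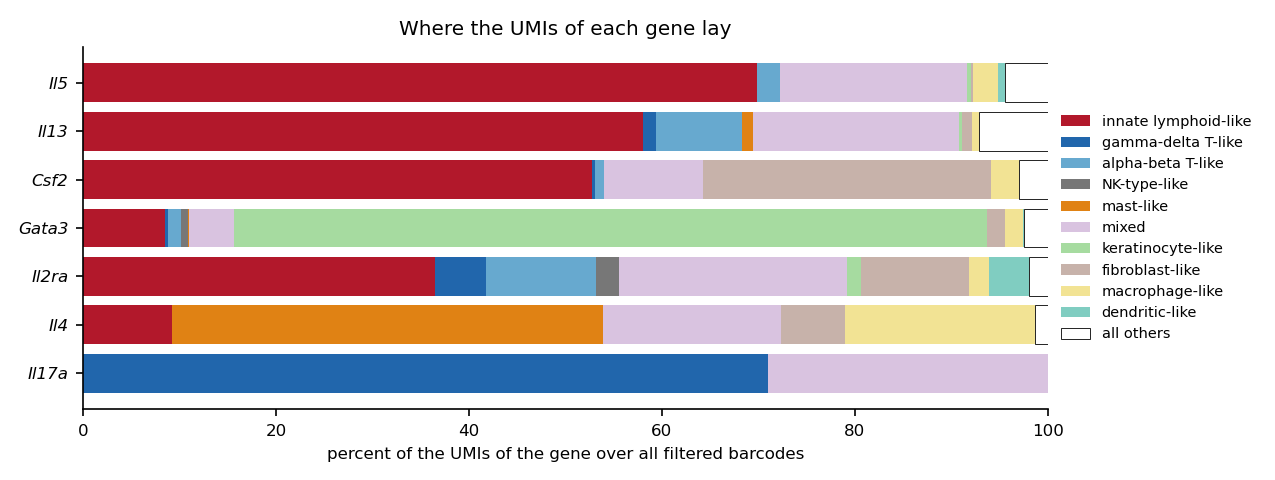
Percent of the UMIs of each gene over all 8127 filtered barcodes (horizontal axis) that lay in each class, 1 bar a gene. Innate lymphoid-like barcodes held 69.9% of Il5, 58.0% of Il13 and 52.8% of Csf2 UMIs, whereas keratinocyte-like barcodes held 78.0% of Gata3 UMIs.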

How the data were processed

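The deposited matrix gives UMI counts, as whole numbers, with genes down and barcodes across. Cell Ranger and mm10 are named in the submitters' processing notes. The version, cell calling and annotation are not given in the sources used here. The hashtag library was not analysed here. Total depth was 83725065 UMIs.

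Scanpy 1.11.5 scaled each barcode to 10000 and took 2000 variable genes, 30 components and 15 neighbours, with the 7 genes left out. Leiden clustering at resolution 1 gave 27 clusters. The 409 lymphoid and mast barcodes were clustered again into 10, from 1000 genes and 15 components. Naming a cluster from a marker list needed at least 3 markers 2-fold above the median cluster in at least 10% of its barcodes. A cluster led by genes of another list stayed unnamed. Called doublets (305, 3.75%) were kept.

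Rates were compared by exact conditional 95% intervals. No p-value was computed, since barcodes of 1 library are not replicates. Genes with at least 20 UMIs over the 5 classes were tested in lists, and a count of 0 was set to 3 counts for bounds. From each list at most the 3 genes with highest CPM and the 3 with the largest ratio were named, among genes with 20 or more UMIs in the class, along with the 3 genes most correlated with each member and those a member's description turned on. The members and lists were chosen with earlier results of these data known. The ratio calculation was tested on simulated data. Alternatives were other filters, resolutions, classes from marker UMIs, free RNA subtracted, thinning and leaving out the top barcode.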

Additional observations from a re-analysis of the deposited data

How the results depend on the processing

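No paired analysis was possible because the data are 1 library without replicates. Of the 26 shifts that passed counting error among main values, 11 came with classes drawn from marker UMIs per barcode, 5 with thinning, 4 with a lower clustering resolution, 3 without the barcode with most UMIs and 1 with each of 3 other settings. With classes from marker UMIs the innate lymphoid-like levels were 681 CPM for Csf2, 1338 CPM for Gata3, 387 CPM for Il13, 411 CPM for Il2ra and 469 CPM for Il5, and the mast-like Il4 level 313 CPM. The ratios came to 6.37 for Csf2, 5.26 for Gata3, 10.7 for Il13, 4.43 for Il2ra and 6.20 for Il5. Ratios to the other 4 classes then turned above 1 for Csf2 (2.32) and Gata3 (1.12) in mast-like and for Gata3 (1.13) and Il5 (1.34) in alpha-beta T-like barcodes. Without the barcode with most UMIs of the gene the levels were 420 CPM for Il13, 807 CPM for Il5 and 17.3 CPM for Il17a. With barcodes weighing the same, Il5 came to 861 CPM. At a lower clustering resolution Il17a in gamma-delta T-like barcodes had a level and a share of 0 and a ratio bound of 0.679, and 1 type 17 gene was higher. Thinned shares were 86.2% for Gata3, 16.9% for Il13, 36.9% for Il2ra and 36.9% for Il5, and that of Il5 among barcodes with Il13 was 36.4%. The Gata3 share was 100% with 500 genes a barcode and with doublets removed. The other 191 recomputed main values stayed within counting error or the set limits. A 10% mitochondrial limit left the classes as they were, since no barcode of them passed 9.37%. Depth limits Il17a, with 31 UMIs in all, and mast-like values, with 23 barcodes.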
